A study of Drosophila melanogaster with 3 samples.

Results

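The binding of a GFP-tagged Topi protein was described at the 9 nuclear receptor genes of the ecdysone response in Drosophila melanogaster: EcR, usp, Eip75B, Eip78C, Hr3, Hr4, Hr38, Hr39 and ftz-f1. The genes were taken by name from a fixed list, and all 9 were found among the 13945 protein-coding genes of the main chromosomes. A peak was assigned to a gene when its summit lay inside the gene or within 5000 bp of one of its transcription start sites (TSSs). The series holds 1 group of 3 libraries, the biological replicates 1 to 3 of the labels. Each is an anti-GFP chromatin immunoprecipitation with sequencing (ChIP-seq) of whole white prepupae, males and females pooled, from 1 transgenic line that stably carries topi with GFP at its C terminus. The age is given as unknown beyond the white prepupal stage, no other genotype or treatment is labelled, and no library of untagged animals is among the samples. Values are those of the deposited peak lists: the signal is the authors' enrichment over a control, and rank 1 is the strongest peak of a list. Signals were not scaled between libraries, so replicates are compared by rank. Read depth is unknown from such lists. Whole animals mix tissues, so a weak peak in all cells and a strong peak in few cells cannot be told apart.

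The steroid hormone ecdysone times the molts and metamorphosis of insects. It binds a heterodimer of EcR, the hormone receptor, and Usp, the fly RXR, which together switch on early genes such as Eip75B. Eip75B and Eip78C encode receptors themselves. With Hr3, Hr4 and ftz-f1 they form a relay that carries the animal from the end of larval life through the prepupal stage. Hr38, the fly NR4A receptor, is another partner of Usp, and Hr39 is a close relative of ftz-f1. Topi, a protein with zinc fingers, belongs to the testis-specific meiotic arrest complex, which is known for activating the genes of spermatocytes.

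The 4 strongest peaks at these genes carried signals of 1000 or more and all lay in introns of Eip75B, Eip78C and Hr4. Their sequence is shown for 201 bases with the summit at base 101, and 2 bound promoters are shown beside them because they are the most strongly bound promoter of the 9 genes and the bound promoter of ftz-f1. All are read 5′ to 3′ along the strand of the gene, from the RefSeq genome of the dm6 build. Capitals mark exact matches, on either strand, to the searched motifs GAGAG (the core bound by GAGA factor), TTTGAA (the CHR element of cell cycle genes), CAGCTG (an E-box) and the 7-mer GGTGGAC. The Eip75B intron peak is at chr3L:18011801-18012001 on the minus strand, the Eip78C intron peak at chr3L:21253799-21253999 on the plus strand, and the Hr4 intron peaks at chrX:1947661-1947861 and chrX:1951809-1952009 on the plus strand. The Eip75B-RC promoter is the 150 bases upstream of its TSS, at chr3L:17999822-17999971 on the minus strand, and the ftz-f1 promoter is at chr3L:18765797-18765947 on the minus strand with the summit at base 76.
Eip75B intron: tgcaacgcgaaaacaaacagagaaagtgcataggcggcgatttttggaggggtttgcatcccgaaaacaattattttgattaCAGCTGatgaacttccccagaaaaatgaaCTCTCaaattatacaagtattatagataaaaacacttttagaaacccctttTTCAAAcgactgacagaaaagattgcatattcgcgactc
Eip78C intron: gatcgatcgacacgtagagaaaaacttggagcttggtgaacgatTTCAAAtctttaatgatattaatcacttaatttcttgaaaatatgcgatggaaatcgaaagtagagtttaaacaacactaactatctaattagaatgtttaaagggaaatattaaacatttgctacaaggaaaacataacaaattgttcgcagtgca
Hr4 intron, nearer the promoter: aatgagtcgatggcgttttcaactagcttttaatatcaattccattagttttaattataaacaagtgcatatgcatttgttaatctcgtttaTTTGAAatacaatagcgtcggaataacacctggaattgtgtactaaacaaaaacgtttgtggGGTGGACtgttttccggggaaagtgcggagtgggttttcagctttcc
Hr4 intron, farther from the promoter: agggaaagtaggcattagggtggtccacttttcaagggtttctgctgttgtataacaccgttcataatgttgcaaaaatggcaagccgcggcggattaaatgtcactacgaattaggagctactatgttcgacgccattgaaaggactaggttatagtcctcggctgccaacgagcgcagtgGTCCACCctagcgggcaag
Eip75B-RC promoter: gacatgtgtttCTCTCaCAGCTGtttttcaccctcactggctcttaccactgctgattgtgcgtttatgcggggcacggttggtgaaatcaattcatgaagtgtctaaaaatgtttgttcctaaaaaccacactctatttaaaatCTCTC
ftz-f1 promoter: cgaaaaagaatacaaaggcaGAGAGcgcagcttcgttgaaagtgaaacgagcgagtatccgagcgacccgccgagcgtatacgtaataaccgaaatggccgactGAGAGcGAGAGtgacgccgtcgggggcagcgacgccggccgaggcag
TTTGAA was in 3 of these 4 intron sequences, those of Eip75B, Eip78C and the Hr4 peak nearer the promoter. Within 100 bp of the summit, TTTGAA was in 23.5% of the 68 IDR peaks at the receptor genes, against 31.4% of all IDR peaks. Whether TTTGAA is more frequent in strong peaks was not tested. GAGAG was in both promoters, 3 times in that of ftz-f1, and once in the Eip75B intron. CAGCTG was in both Eip75B sequences. The Eip75B-RC sequence ends at the TSS and does not hold the summit, which lies 29 bp downstream. None of the 14 IDR peaks within 500 bp of a TSS of their own receptor gene had CAGCTG within 100 bp of the summit. Both Hr4 sequences held GGTGGAC, a 7-mer that was chosen after these sequences had been read.

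The 9 genes held 68 of the 8424 peaks in the set that passed the authors' irreproducible discovery rate (IDR) filter, with at least 1 peak at every gene. Of all protein-coding genes, 51.0% held such a peak inside them or within 5000 bp of a TSS. The peaks were spread unevenly: 16 at Eip75B, 13 at Hr4, 11 at Hr3, 9 at EcR, 7 at ftz-f1, 6 at Eip78C, 4 at usp, and 1 each at Hr38 and Hr39. In the assigned windows, 489 kb in all, IDR summits numbered 1.39 per 10 kb, against 0.629 per 10 kb over the main chromosomes. The latter density is over whole chromosomes, sequence between genes included, and not over the same windows of other genes. The median signal was 193 at the receptor genes and 180 over all IDR peaks, and 39 of the 68 peaks were among the stronger 4212 of the set. Peak widths ran from 110 to 493 bp. Some neighbouring peaks overlapped, so the counts are of summits and not of separate regions.

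By position, 50 of the 68 summits lay in introns of the receptor genes, 10 in untranslated regions, none in coding exons and 8 outside the transcribed regions. Introns more than 500 bp from any TSS held 42 summits, or 61.8%, against 41.0% of all IDR summits. These shares are of unlike sets. The summits of the receptor genes come from windows drawn around genes, while all IDR summits include those between genes. A TSS of the same gene was within 500 bp for 14 summits, 9 upstream and 5 downstream of the TSS. Another 4 were as close to a TSS of another gene only. The closest TSS of all belonged to the receptor gene for 37 summits and to another gene for 31, among them short genes and noncoding RNA genes inside or beside these loci.

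**Figure D1:**
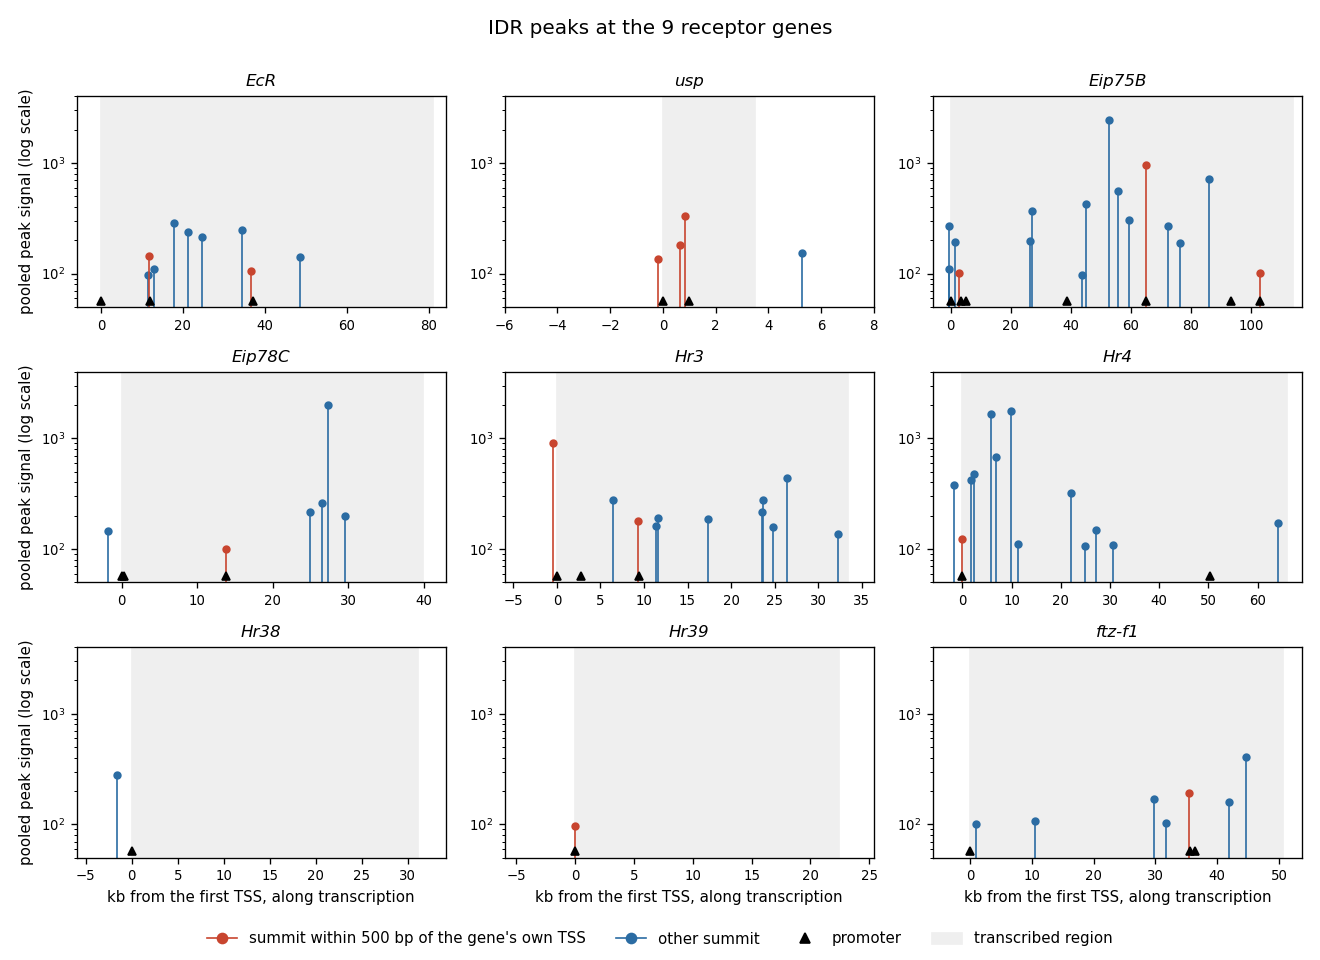
IDR peaks at each of the 9 receptor genes, with the position of the summit along transcription from the most upstream TSS on the x axis (kb) and the pooled peak signal on a log y axis. Stems are single peaks, red within 500 bp of a TSS of the gene and blue elsewhere, triangles are promoters and grey is the transcribed region; the 4 peaks of signal 1000 or more are blue stems in Eip75B, Eip78C and Hr4.

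Ordered by the strongest peak of each gene, Eip75B came first with a pooled rank of 26, followed by Eip78C at 41, Hr4 at 65, Hr3 at 316, ftz-f1 at 1441, usp at 1946, EcR at 2345, Hr38 at 2447 and Hr39 at 8150. The ranks of the same peaks in the single replicates show which neighbours in that order are apart. The Eip75B peak ranked 31, 23 and 25 in replicates 1, 2 and 3, and the Eip78C peak 57, 38 and 44, with no overlap. The Hr4 peak ranked 68, 57 and 65, which meets the Eip78C range at 57, though Eip78C was ahead in each replicate. Hr3, at 362, 339 and 279, stood apart from both the Hr4 peak above it and the ftz-f1 peak below it, at 1456, 1589 and 1389. The usp peak ranked 3139, 1818 and 1546, which overlaps the ftz-f1 range, though ftz-f1 was ahead in each replicate. The EcR peak ranked 2058, 3542 and 2207, so usp and EcR overlapped and changed places in replicate 1. Hr38, at 9139, 1370 and 2388, overlapped EcR above it and Hr39 below it, at 9818, 5850 and 10145. The lists were ordered by the authors' signal, and the IDR set was chosen on these same replicates, so agreement among them is a description of the peaks and no independent support.

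EcR, the ecdysone receptor itself, held 9 IDR peaks, none stronger than a signal of 286. It has 3 promoters, counting TSSs within 100 bp of each other as 1, and the upstream one, of EcR-RA, held no IDR summit. A pooled relaxed summit lay 84 bp downstream of that TSS with a signal of 89.7 and rank 8777, just under the lowest IDR signal of 93.7. In the replicates the summit there ranked 24049, 6768 and 12604. The promoter of EcR-RD and EcR-RE had a peak of signal 143, rank 5440, with its summit 368 bp upstream. That of EcR-RB, EcR-RC and EcR-RG had one of signal 105, rank 7530, with its summit 474 bp upstream, and replicate 1 listed no peak over it. The strongest EcR peak, chr2R:6151170-6151363, lay in intron 3 of 6 of EcR-RA, 1389 bp from tRNA:Asn-GTT-1-1, a transfer RNA gene inside EcR. That intron held 6 of the 9 summits, and the peaks farther from promoters in it had signals from 141 to 286.

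In usp, the short gene of the EcR partner (3.51 kb), both promoters were bound. Around the usp-RA TSS, 2 IDR summits lay 162 and 365 bp upstream with signals of 330 and 180. The weaker was closer to a TSS of CG4313, at 191 bp. The stronger, rank 1946, is the strongest usp peak and lies in an untranslated region. Both overlapped the same replicate 1 peak, at rank 3139, so replicate 1 shows 1 region where the pooled list has 2 summits. At usp-RB the summit lay 176 bp upstream with a signal of 136, and it was equally far from a TSS of Actn, the alpha-actinin gene next to usp. The remaining usp peak, of signal 152, lay 398 bp from another Actn TSS, 4295 bp from the nearest usp TSS.

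Eip75B, the largest of the 9 genes at 114 kb and an early gene whose protein is a heme-binding repressor, had 7 promoters and 16 IDR peaks. Its strongest peak, chr3L:18011642-18012134 with a signal of 2424, lay in intron 3 of 7 of Eip75B-RF, 12080 bp upstream of the Eip75B-RC TSS. Its signal was 556, 852 and 1029 in replicates 1, 2 and 3, and it ranked 26 in the IDR set. The Eip75B-RC promoter was the strongest bound of the gene: a peak of signal 957, rank 275, with its summit 29 bp downstream of the TSS and ranks of 409, 280 and 233 in the replicates. Between that intron peak and this promoter lay 2 further peaks, of signals 564 and 308. The promoters of Eip75B-RE and Eip75B-RD carried weak peaks of signals 101 and 102, ranks 7805 and 7764. Replicate 1 listed no peak over the Eip75B-RE summit, and it ranked that of Eip75B-RD at 19024.

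The other 4 Eip75B promoters were not bound at this distance. Eip75B-RA and Eip75B-RG had pooled relaxed summits of signals 92.8 and 71.0, at ranks 8495 and 10844. Eip75B-RF and Eip75B-RB had no summit within 500 bp in any of the 5 lists, and 2 IDR summits, of signals 272 and 111, lay just outside that distance, 522 and 728 bp upstream of the Eip75B-RF TSS. Downstream of Eip75B-RC, in intron 4 of 7, a peak of signal 712, rank 536, lay 7210 bp upstream of Eip75B-RA and 3192 bp from the TSS of lncRNA:CR45921. It ranked 651, 669 and 378 in the replicates.

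Eip78C, a receptor gene related to Eip75B, carried its strongest signal away from promoters. Its strongest peak, chr3L:21253661-21254143, had a signal of 2012 and rank 41, and lay in intron 3 of 5 of Eip78C-RA. It was 13552 bp downstream of the Eip78C-RB TSS and 4121 bp from that of CG43218. In replicates 1, 2 and 3 its signal was 461, 726 and 838. Within 5 kb of that summit were 3 more, all in the same intron, with signals of 218, 258 and 200. Of the 3 promoters, that of Eip78C-RB was the bound one, with a signal of 99.8, rank 7930, and a summit 41 bp downstream. The upstream promoters of Eip78C-RD, Eip78C-RE and Eip78C-RA had no summit within 500 bp in any list.

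Hr3, which represses early genes and helps to induce ftz-f1, held 11 IDR peaks in a gene of 33.4 kb. Those of signals 192 and 160 overlapped and matched the same peak in each replicate. The same held for those of signals 275 and 217, so the 11 are not all separate regions. The strongest Hr3 peak, chr2R:10237582-10238069 with a signal of 907, lay 456 bp upstream of the Hr3-RD TSS. A TSS of Hdc, the histidine decarboxylase gene, was closer, at 184 bp, so the lists cannot tell which gene the peak belongs to. The promoter of Hr3-RA, Hr3-RF and Hr3-RH had a signal of 178, rank 4266, with its summit 34 bp upstream. A TSS of CG46321 was at the same distance from this summit. The peak ranked 3731 and 3523 in replicates 2 and 3, but 16593 in replicate 1. The promoter of Hr3-RC and Hr3-RI had no summit in any list. The next strongest peak, of signal 436, lay in intron 1 of 8 of Hr3-RD, 478 bp from the TSS of lncRNA:CR46322.

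Hr4, which acts downstream of ecdysone in the same relay, had 13 IDR peaks, 7 of them in the first 12 kb after its upstream TSS. The strong ones at chrX:1951715-1952117 and chrX:1947537-1947970, with signals of 1756 and 1664, both lay in intron 2 of 11 of Hr4-RK, 9969 and 5821 bp downstream of that TSS. They ranked 65 and 75 in the pooled set. The TSS closest to the stronger was that of CR46447, at 2571 bp. In replicates 1, 2 and 3 the stronger had signals of 424, 625 and 723 and the other 429, 512 and 717. A weaker peak of the same intron, of signal 678, lay between them. Around each of 3 Hr4 summits there were 6 IDR summits within 5 kb, itself included, and 5.73% of all IDR summits had as many or more. The median was 3 at the receptor genes and 2 over all IDR peaks. The promoter itself, shared by 7 transcripts, was weak: signal 123, rank 6363, with a summit 5 bp downstream, and replicate 1 listed no peak over it. The downstream promoter of Hr4-RE and Hr4-RF had no IDR or pooled summit.

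ftz-f1, the competence factor that peaks in mid-prepupae, had 7 IDR peaks. The promoter of ftz-f1-RC and ftz-f1-RD was bound 128 bp upstream of its TSS, with a signal of 193 and rank 3875. This peak ranked 2415 and 4344 in replicates 2 and 3, and 12439 in replicate 1. The strongest peak, chr3L:18756538-18756848 with a signal of 407, lay in intron 3 of 9 of ftz-f1-RB, 2572 bp from lncRNA:CR45938. It ranked 1456, 1589 and 1389 in the replicates. The ftz-f1-RB promoter had a summit in the replicate 2 list alone, at rank 8462, and ftz-f1-RA had none in any list.

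Hr39 and Hr38 held 1 IDR peak each. That of Hr39 lay 23 bp downstream of the TSS its 4 transcripts share and was among the weakest of the set, with a signal of 97.2. It was among the strongest 8424 peaks in replicate 2 alone. The Hr38 peak, chr2L:20716096-20716315, lay 1622 bp upstream of the TSS with a signal of 277. Hr38, a gene of 31.1 kb, had no IDR summit inside it, and its pooled relaxed list held 2 summits in the whole window.

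Start sites were bound, with an IDR summit no farther than 500 bp, at 8 of the 9 receptor genes, all but Hr38, and at 24.3% of all protein-coding genes. Counted by promoter, 13 of 25 were bound, against 22.7% of promoters of protein-coding genes. Genes with more promoters have more chances to be counted, and these genes have many. Among genes with 3 or more promoters 58.9% were bound, and so were all 5 receptor genes of that class. With 2 promoters it was both receptor genes, against 36.4% of genes. With 1 promoter it was Hr39 and not Hr38, against 18.5% of genes. Of the 12 promoters without an IDR summit, 6 had none in any of the 5 lists. A peak of signal 1000 or more was found at 3 of the 9 genes, Eip75B, Eip78C and Hr4, against 3.72% of all protein-coding genes.

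Gene length moved with these counts as well. Among genes over 60 kb the median was 4 IDR summits and at least 1 gene in 10 held 14 or more, and the receptor genes of that class, EcR, Hr4 and Eip75B, held 9, 13 and 16. In that class 13.5% of genes held a peak of signal 1000 or more. From 30 to 60 kb the median was 2 and at least 1 gene in 10 held 8 or more, with 11 at Hr3, 7 at ftz-f1, 6 at Eip78C and 1 at Hr38. Among genes up to 10 kb, at least 1 gene in 10 held 2 or more, and usp held 4. Hr39, with 1, was at the median of genes of 10 to 30 kb. How much length, promoter number or other features account for the counts was not tested.

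**Figure D2:**
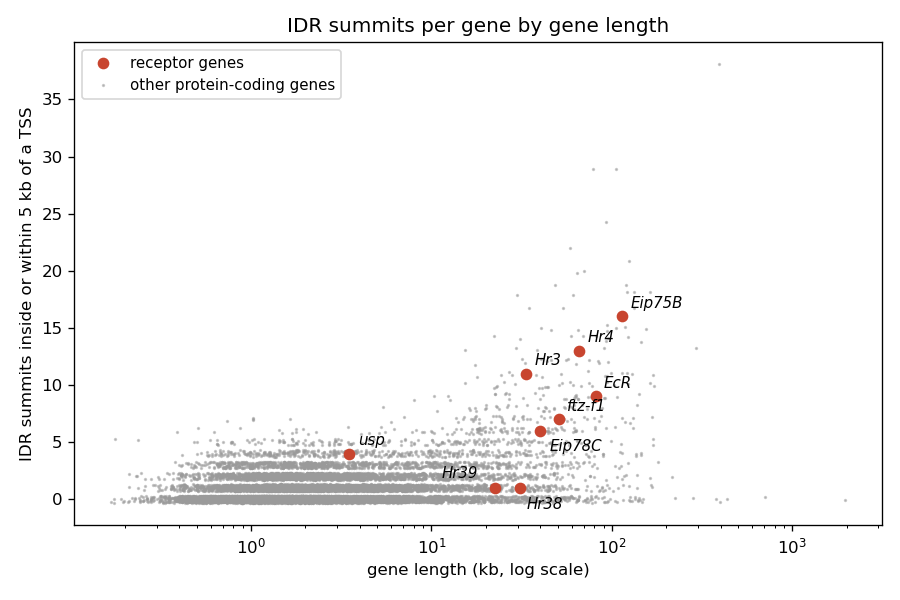
IDR summits per gene (y axis) against gene length on a log x axis (kb), with the 9 receptor genes in red and the other protein-coding genes as grey points spread a little up and down to show overlaps. Hr3, Hr4 and Eip75B, with 11, 13 and 16 summits, lie above the median of genes of their length, while Hr38 and Hr39 have 1 each.

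Below the IDR threshold, the pooled relaxed list, which by its label includes background, held 248 summits at the 9 genes. Of these 80 shared at least 50% of either peak with an IDR peak and 168 did not. Relaxed summits with no IDR match numbered 3.43 per 10 kb at the receptor genes and 1.52 per 10 kb over the main chromosomes. The latter is again over whole chromosomes and not over windows around genes. Eip75B alone held 83 pooled relaxed summits and EcR 39, while usp held 6 and Hr38 2. The replicate lists, of 30000 peaks each, held 165, 252 and 264 summits at these genes. Among the strongest 8424 peaks of each replicate there were 56, 78 and 69, or 67.7 ± 11.1 (SD, n = 3).

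Replicate 1 stood apart from the others at the promoters. A peak counted as found in a replicate when it shared at least 50% of either peak with 1 of its strongest 8424. All 3 replicates found 42 of the 68 peaks, or 61.8%, against 66.0% of all IDR peaks. Of the 14 peaks within 500 bp of a TSS of their own gene, 6 were found in replicate 1, 13 in replicate 2 and 12 in replicate 3. Their median ranks were 11128, 4112 and 5414. Of the 54 peaks farther away, 44, 47 and 48 were found, with median ranks of 3262, 3481 and 3294. Over all IDR peaks that close to any TSS, the shares were 72.9%, 86.9% and 90.3%, and over those farther away 88.0%, 82.2% and 88.7%. The receptor genes with a promoter summit among the strongest 8424 were 4 in replicate 1, 8 in replicate 2 and 7 in replicate 3, or 6.33 ± 2.08 (SD, n = 3), against 22.1%, 27.5% and 25.5% of all protein-coding genes. With only the IDR peaks found in all 3 replicates, the count of 8 bound genes becomes 4: EcR, usp, Eip75B and Hr3. Hr3 stays through the peak 456 bp upstream of Hr3-RD, which is closer to a TSS of Hdc, at 184 bp.

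**Figure D3:**
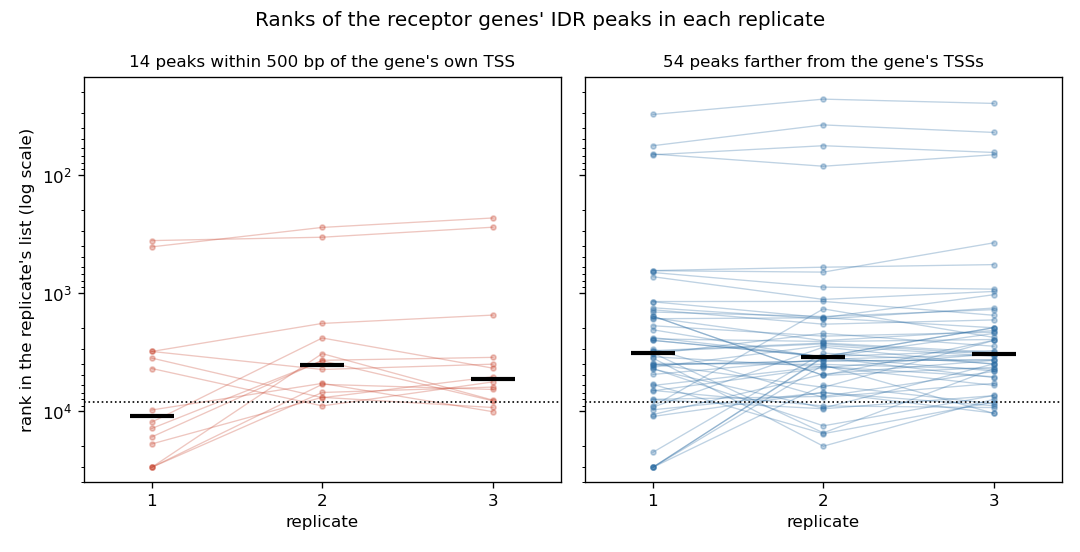
Rank of each of the 68 IDR peaks in the lists of replicates 1, 2 and 3 (log y axis, strongest at the top), for 14 peaks within 500 bp of a TSS of the gene on the left and 54 farther away on the right. Lines join the values of 1 peak, black bars are medians, the dotted line is rank 8424, and peaks with no match in a list are drawn at 30000; the promoter median is lowest in replicate 1, at 11128.

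Base composition moved with this split. GC content within 100 bp of the summit had a median of 45.8% for the 14 promoter peaks and 36.3% for the 54 others. Over all 68 it ran from 23.9% to 63.7%, with a median of 36.8%, against 34.3% for all IDR peaks. In classes of GC content chosen after replicate 1 had been seen, replicate 1 found 14 of 14 peaks up to 30% GC, 26 of 30 from 30 to 40%, 7 of 14 from 40 to 50% and 3 of 10 above 50%. Replicate 2 found 12, 26, 13 and 9 of the same peaks, and replicate 3 found 14, 27, 10 and 9. All IDR peaks showed the same order in replicate 1, with 88.2%, 87.3%, 68.6% and 38.6% found, against 93.0% and 80.3% for replicates 2 and 3 above 50% GC. The peaks of signal 1000 or more were found in all 3 replicates. In every GC class, replicate 1 found a smaller share of all IDR peaks within 500 bp of a TSS than of those farther away. From the lowest GC class up, the shares near a TSS were 85.1%, 80.9%, 59.7% and 31.4%. Farther away they were 89.8%, 90.7%, 78.5% and 54.5%. The part of GC content and of replicate 1 in the promoter counts was not tested.

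**Figure D4:**
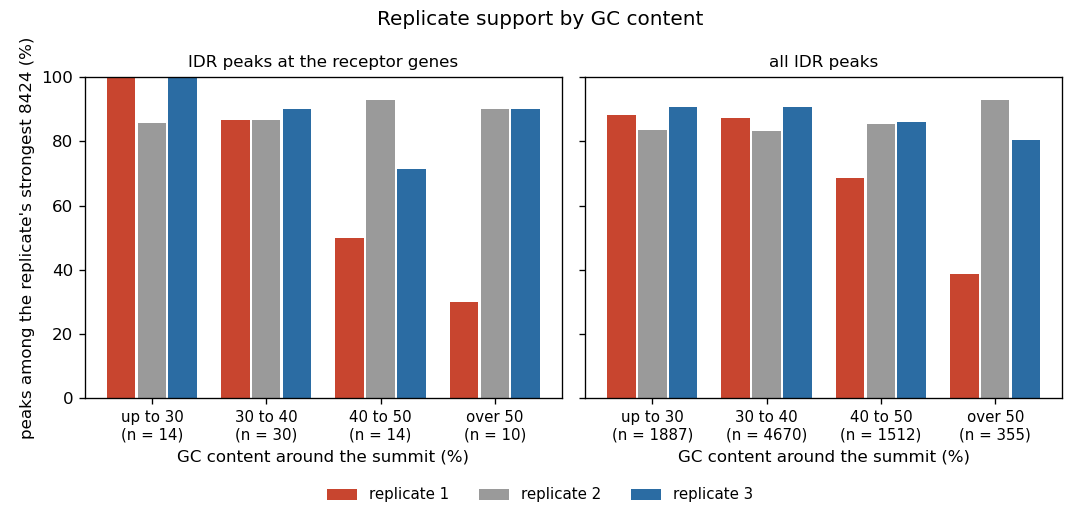
Share of IDR peaks found among the strongest 8424 peaks of replicates 1, 2 and 3 (y axis, percent) by class of GC content within 100 bp of the summit, for the 68 peaks at the receptor genes on the left and all IDR peaks on the right, with the number of peaks under each class. Above 50% GC, replicate 1 found 3 of 10 peaks at the receptor genes and 38.6% of all IDR peaks.

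Exact motif matches within 100 bp of the summit, on either strand, were counted in the 68 peaks, in all IDR peaks and in pooled peaks outside the IDR set. GAGAG was in 35.3% of the receptor gene peaks, against 23% of all IDR peaks and 22.9% of the pooled peaks outside the set. It was in 8 of the 14 promoter peaks, or 57.1%, against 24.4% of all IDR peaks within 500 bp of any TSS. Among peaks found in all 3 replicates it was in 21.4% at the receptor genes, against 20.8% of all IDR peaks. CAGCTG was in 2.94%, against 7.53% of all IDR peaks. GGTGGAC was in 4.41%, against 0.867%, but it was picked from the Hr4 sequences shown, which are among the peaks counted. Its higher share follows from that choice. Within 50 bp of the summit its share at the receptor genes was 0%. CGATA, the short core of the DRE and BEAF-32 motifs, was in 26.5%, against 25.1% of all IDR peaks, and the 8-mer TATCGATA was in none, against 2.64%. TTTGAA was in 23.5%, against 31.4% of all IDR peaks. AGGTCA, the core that nuclear receptors bind, was in 3 peaks, 1 each at Eip75B, Hr4 and ftz-f1, or 4.41%, against 3.76% of all IDR peaks, and its variant TGAACC was in none, against 4.96%. Matches in 68 peaks are few, and a share made of 3 peaks changes with each one. No match says only that these letters were not in the window.

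Genes around the receptors in the pathway were counted the same way, to be read beside 24.3% of all protein-coding genes with a promoter summit, 51.0% with a summit in the window and 3.72% with a peak of signal 1000 or more. Of 12 other nuclear receptor genes, 5 had a promoter summit, within 500 bp of a TSS, and 7 a summit in the window, none with a signal of 1000 or more. The strongest promoter peaks were at Hr96, a sensor of foreign compounds, with a signal of 611, Hnf4, a regulator of fat metabolism, with 554, ERR, a regulator of sugar use, with 345, and Hr78 and eg with 165 each. Of 11 genes for making, importing and inactivating ecdysone, 2 had a promoter summit: EcI, the ecdysone importer, with a signal of 344, and sro, a biosynthesis gene, with 143. In the window it was 5 of 11, none with a signal of 1000 or more. Of 9 cofactor genes 4 had a promoter summit: MEP-1 with 486, the coactivator gene tai with 208, the demethylase gene Utx with 161 and Bx42 with 101. In the window it was 5 of 9, and 2 of these held stronger peaks away from their promoters, tai with 1132 and Smr, a corepressor gene, with 1075. Of 16 other response genes 7 had a promoter summit and 14 had a peak in the window, 4 with a signal of 1000 or more. E23, a transporter gene induced by ecdysone, had a promoter signal of 1092 and rank 196, and hid, a cell death gene, had 1044 and rank 224. ImpE3 followed with 358 and Eip74EF, an early ETS factor gene, with 304. With 1 group and no conditions, no gene could be named for a pattern across samples like that of the receptor genes.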

How the data were processed

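The deposited peak lists came from anti-GFP ChIP-seq on 3 libraries, with sonicated chromatin of 200 to 800 bp per the labels. According to the records deposited beside them, the authors made relaxed peak lists per replicate and for the pool, with 1 control alignment, and derived an optimal IDR set. Which aligner, peak caller and IDR threshold they took is not given in the sources used. The signal per peak is the authors' enrichment score, used to rank and describe peaks within a list. The deposited -log10 q-value was not used to filter, and the deposited summit offset gave the summit position. The control library and the dm3 lists were not used here, the dm3 lists because no annotation of that build was used and no coordinate was converted. Peak lists carry no read counts, so the depth of the samples is unknown.

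Genes, TSSs, introns and untranslated regions were taken from Ensembl release 115 on the dm6 assembly, and sequence from the RefSeq genome of the same assembly. TSSs within 100 bp of each other on a gene were counted as 1 promoter. An IDR peak was matched to a replicate by an overlap of at least 50% of either peak. Neighbouring IDR peaks can match the same replicate peak. The relaxed lists stop at 30000 peaks, so a missing peak is 1 that did not reach that rank. The 9 genes, the lists of other pathway genes and the motifs were chosen with earlier results of these data known, and a 6-mer, a 7-mer, the motif shares by class of peak and the GC classes were added after the data had been seen. With 1 group and chosen genes, no test was made, and counts are given beside those of all genes or peaks.

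The rule for named genes took the 9 receptor genes, with every peak of signal 1000 or more, the strongest peak and the strongest promoter peak of each. It added up to 4 genes from each pathway list by their promoter signal, with eg named beside Hr78 at the same rounded signal, and the genes whose TSSs were closest to a named peak. Other peaks of the receptor genes were described by position, and Smr was named, after their values were seen. Of the 48 list genes, 5 were found under another symbol: phm as phtm, EcI as Oatp74D, Nurf301 as E(bx), Eip71CD as MsrA and Eip55E as Cth. Alternatives were other flanks, TSS and motif windows, overlap rules and stricter lists, and leaving out each replicate. The software was matplotlib 3.10.9, scipy 1.17.1, pandas 2.3.3 and numpy 2.4.6 under Python 3.11.15, and the steps were tested on simulated data.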

Additional observations from a re-analysis of the deposited data

How the results depend on the processing

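With the stronger 4212 IDR peaks, the 9 genes held 39 summits in place of 68, and 4 genes in place of 8 had a summit within 500 bp of a TSS. With IDR peaks found in all 3 replicates these counts were 42 and 4. When each replicate was left out in turn and peaks found in the remaining ones were kept, summits numbered 42 to 54 and genes with a promoter summit 4 to 7. The stronger part of the pooled relaxed list held 123 summits in place of 248. The share of IDR peaks found in all 3 replicates was 89.7% in place of 61.8% with the whole replicate lists, and 61.8% to 79.4% when 1 replicate was left out. The share with AGGTCA or TGAACC was 14.7% within 200 bp of the summit in place of 4.41% within 100 bp. Over all IDR peaks it was 8.54% within 100 bp. A wider window holds more matches of any short motif, and no share of all IDR peaks within 200 bp is given. The share with GAGAG at the receptor genes was 21.4% among peaks found in all 3 replicates. Of 174 alternatives computed, 141 were labelled as leaving their value the same. For counts this label allowed a change by a factor of up to 1.5. Of the 174, 128 were shares of single motifs, for which the label allowed larger changes. Under it, the share with AGGTCA went from 4.41% to 8.82% within 200 bp. The 3 genes with a peak of signal 1000 or more stayed 3 under all alternatives run for that count. Each of these kept the strongest peaks, so they could not lower it. The cause of these shifts was not tested, apart from stricter lists holding fewer peaks. No paired analysis was possible because the series holds 1 group. Unknown depth means that a promoter with no listed summit may still be bound below the rank the lists reach.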

Other observations

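Within the Hr4 locus, the 7-mer GGTGGAC was in 3 of the 68 receptor gene peaks, all of them at Hr4 and among them both peaks of signal 1000 or more. It was in 0.867% of all IDR peaks and in 0.926% of pooled peaks outside the IDR set. The 7-mer was picked from the Hr4 sequences themselves, so its count there is a description. ACAGTG, a 6-mer picked from the 300 strongest IDR peaks, was in 13.2% of the receptor gene peaks, against 17.2% of all IDR peaks and 11.2% of pooled peaks outside the set. TTGGCGC, a motif of the kind bound by E2F, was in 4 receptor gene peaks, at EcR, Eip75B, Hr3 and Hr38, or 5.88%, against 1.93% of all IDR peaks. The other E2F-like motif searched, TTCCCGC, was in none of the receptor gene peaks, against 1.08% of all IDR peaks.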
